A study of Mus musculus with 16 samples.

Results

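The comparison described here is the addition of PSGL-1 to cultured hematopoietic stem cells (HSCs) that carry a knockout of Selp. Its members are the 6 libraries labelled as knockout (KO) cells cultured with vehicle (3 libraries) or with PSGL-1 (3 libraries), out of 16 bulk RNA-seq libraries in all. HSCs are the rare bone marrow cells that maintain all blood lineages, and they came from mice aged 4 to 6 months. The KO vehicle group and the KO PSGL-1 group shared the genotype and the medium, StemSpan with 10% fetal calf serum, 300 ng/mL stem cell factor, 20 ng/mL interleukin-11 and Flt-3 ligand at 1 ng/mL. PSGL-1 was given at 125 ng/mL for 24 hours. For the vehicle culture the duration, and for the added PSGL-1 the species and molecular form, were not stated in the labels. The labels name the allele only as a knockout of Selp and do not say whether it was confined to one cell type. Nor do they tie the replicates to different mice. The tests below thus measure how far the samples of a group scatter, and that scatter may be technical. The other groups, used only for reference, were fresh KO cells (2 libraries) and wild-type (WT) cells that were fresh (3), cultured with vehicle (3) or cultured with PSGL-1 (2).

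P-selectin, the product of Selp, is an adhesion receptor of platelets and endothelium that captures rolling leukocytes. Its main ligand, PSGL-1, is a mucin-like glycoprotein encoded by Selplg that binds only after tyrosine sulfation and the addition of fucosylated, sialylated O-glycans. E-selectin (Sele) also binds PSGL-1, and VISTA (Vsir) is a receptor reported to bind it at acidic pH. A comparison in cells without intact Selp therefore asks what PSGL-1 does when its main receptor is missing.

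No gene passed the test for a difference between PSGL-1 and vehicle in the KO cells. Of 12024 genes tested with edgeR's quasi-likelihood test, 0 (0%) had a Benjamini-Hochberg adjusted p under 0.05, and the smallest adjusted p was 0.999. Without adjustment, 296 genes (2.46%) had a p under 0.05, 204 higher with PSGL-1 (1.7%) and 92 lower (0.765%). DESeq2, run as an alternative, called 43 genes (0.358%), 31 higher (0.258%) and 12 lower (0.0998%). Limma voom with quality weights called 0 of these 43. Levels are given below as CPM, read counts scaled to the library total, in the order of vehicle replicates 1, 2 and 3, and then PSGL-1 replicates 1, 2 and 3.

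The libraries held 13481058 to 24690824 counts, so 3 counts, the detection floor used here, stood for 0.122 to 0.223 CPM, which covers counting error only. KO PSGL-1 replicate 3 stood apart. Its 11292 detected genes compare with 12237 to 13234 elsewhere, and 1160 of the tested genes were at 0 in it against 152 to 529. Its correlations with the other 5 libraries (log2(CPM + 1) over 10416 genes, which are not independent replicates) lay between 0.774 and 0.817. Without it, edgeR called 0 of 12600 genes, and 463 had an unadjusted p under 0.05. Correlations between a vehicle and a PSGL-1 library (0.774 to 0.913) covered the range within vehicle (0.843 to 0.882) and within PSGL-1 (0.793 to 0.902). Of the HSC markers, Procr (34.7 to 71.6 CPM), Ly6a (667 to 864 CPM) and Hlf (113 to 242 CPM) were counted in all 6 libraries. Other HSC markers were low or absent in some libraries, with Fgd5 at 0 in 1 library and Gfi1 at 0 in 2. Hoxb4 ranged from 0.303 to 6.32 CPM, Sult1a1 from 0.0607 to 11.9 CPM and Slamf1 from 8.56 to 24.6 CPM. Of the markers of mature cells, Mpo, S100a8, Cd3e, Cd79a, Adgre1 and Cdh5 were at 0 in each of the 6. Other genes of the same marker lists were counted in all 6, among them Csf3r (151 to 252 CPM), Lyz2 (148 to 241 CPM), Prtn3 (43.5 to 97.3 CPM), Tie1 (174 to 307 CPM) and Cd79b (3.81 to 38.4 CPM).

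Selp, Sele and Vsir, whose products can bind PSGL-1, had low or no counts in these cells. Selp itself, at chr1:164115264-164150026 of GRCm38, was at 5.48, 12.4 and 4.66 CPM with vehicle and at 5.45, 0 and 10.3 CPM with PSGL-1. The groups overlapped, and the log2 fold change was -0.52 (SE 1.63). Over all conditions the mean level of Selp was 5.08 ± 4.48 CPM for KO (SD, n = 8) and 94.1 ± 60.01 CPM for WT (SD, n = 8), with every KO library below every WT library (exact two-sided permutation p = 0.000155, the smallest the design allows, adjusted p = 0.000622 over 4 genes). This permutation test was chosen after the data were seen and mixes fresh and cultured libraries. A residual Selp signal was therefore counted in 6 of the 8 KO libraries, and whether it came from intact transcript cannot be read from gene counts.

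Sele, at chr1:164039614-164058487, had 0 counts in all 16 libraries. Vsir (chr10:60346851-60430294) was at 7.74, 7.49 and 0.0405 CPM with vehicle and at 4.22, 11.8 and 21.3 CPM with PSGL-1. Those groups overlapped, and the log2 fold change of 1.29 (SE 1.44) had a 95% interval from -1.99 to 4.57, too wide to bound a difference. The difference of Vsir between genotypes was within the spread of libraries (exact two-sided permutation adjusted p = 0.664). The cells did transcribe Selplg (chr5:113817798-113832528), their own copy of the ligand gene, at 327, 435 and 245 CPM with vehicle and 295, 393 and 236 CPM with PSGL-1. Both groups covered nearly the same range, and the interval of the log2 fold change (-0.14) ran from -0.70 to 0.43.

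**Figure D1:**
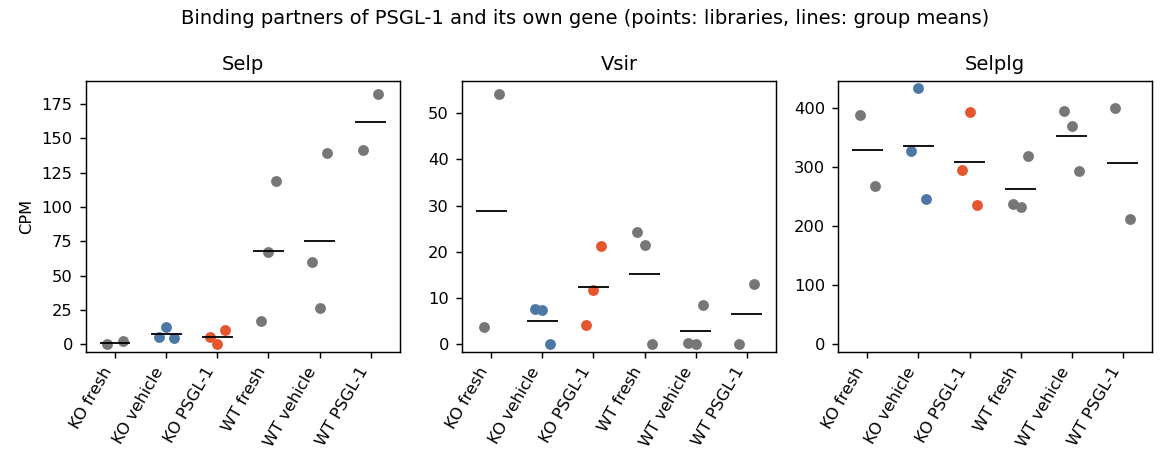
Levels (CPM, linear axes that differ by gene) of Selp, Vsir and Selplg in each library of the 6 groups, with lines at group means. In the 6 cultured KO libraries Selp is at most 12.4 CPM, while Selplg lies between 236 and 435 CPM.

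None of the genes that make or carry selectin ligands passed the test. Of 16 tested members of this list, 0 passed edgeR's test, 10 had a log2 fold change above 0, and the median was 0.08. Over all genes tested 48.4% lay above 0 and the median was -0.02. Cd44, a hyaluronan receptor that can carry selectin-binding glycans, was at 114, 121 and 140 CPM with vehicle and 77.1, 115 and 90.4 CPM with PSGL-1. Tpst1, a tyrosine sulfotransferase, was at 57.7 ± 21.7 CPM and 33.6 ± 13.7 CPM (SD, n = 3). Both sets of values overlapped between groups. Integrins and homing receptors, through which selectin engagement is read out as firm adhesion in leukocytes, had a median of 0.01 over 19 genes, 10 of them above 0. In the same list Esam, an adhesion molecule of HSCs, was at 242 ± 47.9 CPM with vehicle and 184 ± 49.6 CPM with PSGL-1.

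Signalling genes below selectins and PSGL-1 gave 0 calls among 20 members, with a median of 0.05. The kinase gene Syk was at 158, 214 and 194 CPM with vehicle and at 157, 196 and 113 CPM with PSGL-1, and Itgb2, the shared chain of the leukocyte integrins, was at 41.7 ± 17.8 and 21.1 ± 18 CPM. The lowest value of each with PSGL-1 came from replicate 3.

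The NF-kB and inflammatory target list had the largest share of members above 0 among the lists of at least 10 tested genes. Of its 21 tested members 16 (76.2%) lay above 0, against 48.4% of all genes, with a median of 0.25, and 0 passed edgeR's adjusted or unadjusted threshold. The median was 0.21 without KO PSGL-1 replicate 3. Nfkbiz, an atypical IkB protein, was at 26.2, 14.8 and 7.74 CPM with vehicle and 29.8, 37.3 and 24.6 CPM with PSGL-1. Nfkb1, which encodes the p105 precursor of the p50 subunit, was at 163, 147 and 149 CPM and then at 150, 187 and 257 CPM. In both genes the lowest PSGL-1 library lay below the highest vehicle library. Endothelial and stromal markers were also above the overall median (0.34 over 8 tested genes, but -0.08 without KO PSGL-1 replicate 3), with a summed level of 339 to 392 CPM with vehicle and 372 to 524 CPM with PSGL-1, and 8 of the 16 listed markers, Cdh5 and Cxcl12 among them, were at 0 in all 6 libraries. Their part in the NF-kB values was not tested.

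Nfkbia, the feedback inhibitor of NF-kB, was at 77.7, 121 and 95.4 CPM with vehicle and at 115, 143 and 96.2 CPM with PSGL-1. The groups overlapped, and the 95% interval of its log2 fold change (0.25) ran from -0.30 to 0.81. Its RefSeq promoter (GRCm38.p6, minus strand, chr12:55492598-55492897, 250 bases before to 50 after the start) is shown because this gene is a standard readout of the pathway. The capitals mark the match to a 10-base NF-kB motif (GGG, any 2 bases, TTTCC) on the opposite strand, 29 to 20 bases before the start. Searched on both strands, these letters stand in 535 of 32851 promoters of that length (1.63%), and a match is a description, not a measured site.
Nfkbia: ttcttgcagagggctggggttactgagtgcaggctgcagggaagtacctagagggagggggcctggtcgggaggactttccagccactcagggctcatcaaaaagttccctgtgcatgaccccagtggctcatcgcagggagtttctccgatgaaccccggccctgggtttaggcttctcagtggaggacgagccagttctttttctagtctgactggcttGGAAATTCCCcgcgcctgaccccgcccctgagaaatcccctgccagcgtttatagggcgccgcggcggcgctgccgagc

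The early-response and cytokine lists showed the same absence of calls. PSGL-1 was given for 24 hours, so an early response that had ended by then could not be seen. Immediate early genes, which are transcribed within minutes of a stimulus, had 17 of 26 members above 0, a median of 0.08 and 0 with an unadjusted p under 0.05 by edgeR. Nr4a2, a nuclear receptor of this class, was at 4.58, 2.15 and 2.07 CPM with vehicle and 10.3, 9.30 and 4.85 CPM with PSGL-1, groups that did not overlap, with a log2 fold change of 1.46 (SE 1.12). Such separation upward was found in 575 of the genes tested (4.78%) and downward in 505 (4.2%). Dusp6, a phosphatase that limits ERK, was at 122 ± 15.9 and 91.9 ± 26.3 CPM. Cytokine receptors and JAK-STAT feedback genes had a median of 0.08 over 26 members, and their member Ifngr1, a chain of the interferon-gamma receptor, was at 68.6, 87.8 and 84.4 CPM and then at 61.9, 58.5 and 13.8 CPM, the last value again in replicate 3. Genes of the TGF-beta pathway, which favours HSC quiescence, had a median of -0.07 over 24 members, with Bmpr2, a BMP receptor, at 6.74 ± 2.69 and 19.8 ± 12.8 CPM.

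The 24 genes with the smallest unadjusted p (12 in each direction, each averaging 5 CPM or more in one group) were chosen for their separation in this contrast, so their values are a description. The 12 higher genes come first. Dock2, an exchange factor for the GTPase Rac in blood cells (chr11:34226815-34783905), was at 179, 167 and 229 CPM with vehicle and 341, 393 and 323 CPM with PSGL-1. All 3 PSGL-1 libraries lay above all 3 vehicle libraries, and the fitted difference was 1.82-fold (log2 0.87, SE 0.17). Spag5, a spindle protein (chr11:78301470-78322457), was at 75.6, 75 and 73.4 CPM and then at 173, 152 and 118 CPM. The vehicle libraries of Spag5 were nearly equal, and the PSGL-1 libraries spread more.

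Tcof1, which encodes the nucleolar protein treacle, was at 195, 230 and 239 CPM with vehicle and 331, 345 and 380 CPM with PSGL-1. Bms1, a GTPase of small ribosomal subunit assembly, was at 63.6, 54.1 and 51.4 CPM and then at 133, 126 and 88.8 CPM. Hif1a, the oxygen-regulated transcription factor subunit (chr12:73901324-73947554), was at 47.6, 44.3 and 35.8 CPM and then at 85.4, 73.9 and 128 CPM (log2 1.16, SE 0.29). The ribosome biogenesis list did not share the direction of Tcof1 and Bms1: 16 of its 42 tested members lay above 0, with a median of -0.01. The glycolysis list, which holds many targets of Hif1a, had a median of -0.04 with 12 of 25 members above 0. Its log2 fold changes ran from -2.34 to 1.07. The 2 members of smallest p averaging 5 CPM or more in one group were Hk2, the inducible hexokinase, and Pdk1, an inhibitor of pyruvate dehydrogenase. Their log2 fold changes were -0.73 (SE 0.37) and -0.45 (SE 0.32). The relation of either list to Tcof1, Bms1 or Hif1a was not tested.

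Prkar2a, a regulatory subunit of protein kinase A, was at 87.5, 52.2 and 37.3 CPM with vehicle and 131, 141 and 139 CPM with PSGL-1. Naip2, an inflammasome sensor from a family of near-identical copies among which reads may have been split, was at 13.1, 7.42 and 5.51 CPM and then at 33.6, 36.6 and 32.0 CPM. Polr3b, the second-largest subunit of RNA polymerase III, was at 26.7 ± 3.79 and 59.7 ± 8.35 CPM. Cand1, an exchange factor of cullin ubiquitin ligases, was at 181 ± 11 and 269 ± 24.5 CPM. Crebzf, a basic leucine zipper factor, was at 53.8 ± 9.34 and 117 ± 33.5 CPM, and Leng8 at 118 ± 17 and 210 ± 38.3 CPM (SD, n = 3 for each of these).

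Nr1h3, which encodes the oxysterol receptor LXR-alpha (chr2:91184061-91202829), was close to absent with vehicle. It was at 0, 0.148 and 0 CPM with vehicle, which is 2 counts in all, and at 13.1, 11.3 and 7.28 CPM with PSGL-1, 509 counts in all. The ratio of these sums was 284, with an exact interval from 78.1 to 2348 that covers counting error only. In WT cells Nr1h3 was at 5.10 ± 8.09 CPM with vehicle (SD, n = 3) and at 0 and 3.13 CPM with PSGL-1, and in the 2 fresh KO libraries at 0 and 2.87 CPM. The list of fatty acid synthesis genes and LXR targets had 10 of 22 members above 0 and a median of -0.02. It did not lie above the other genes, and its relation to the Nr1h3 level was not tested. Its next member by p was Acaca, the acetyl-CoA carboxylase, at 63.0, 41.2 and 62.5 CPM and then at 91.5, 76.4 and 83.7 CPM.

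**Figure D2:**
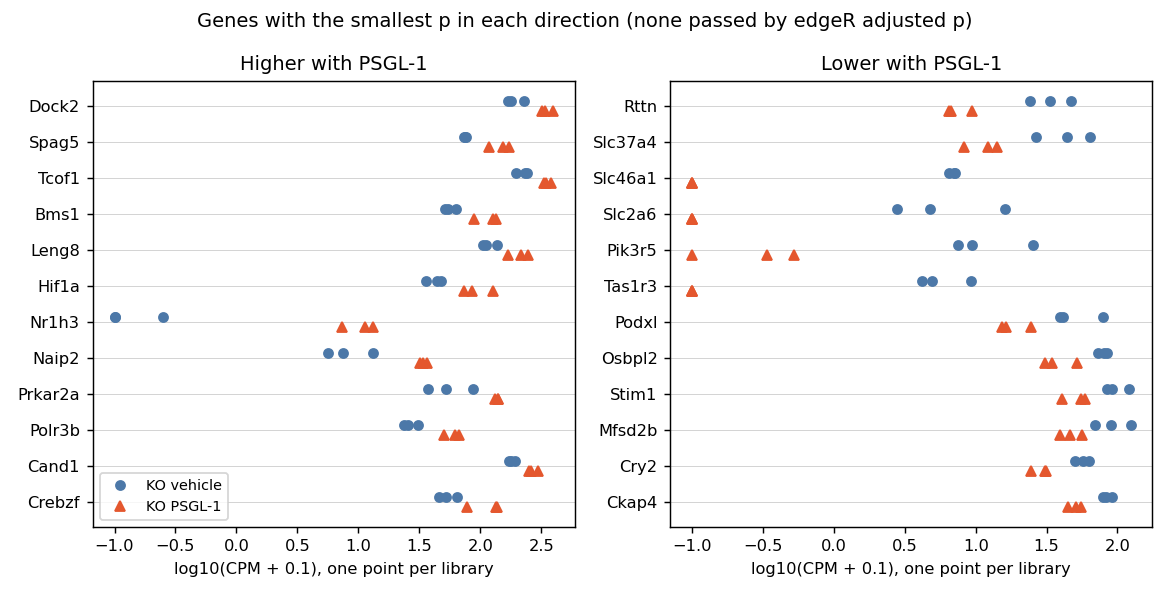
Levels of the 12 higher and 12 lower genes with the smallest unadjusted p in each KO vehicle (circles) and KO PSGL-1 (triangles) library, on a log10(CPM + 0.1) axis. No gene shown overlaps between groups, which the rule required, and none passed edgeR's adjusted threshold, while DESeq2 called 20 of the 24; Slc46a1, Slc2a6 and Tas1r3 are at 0 in all 3 PSGL-1 libraries.

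The 12 lower genes were separated in the same way, by the rule that chose them. Rttn, a centriole protein, was at 33.1, 47.0 and 24.1 CPM with vehicle and 6.62, 6.36 and 9.28 CPM with PSGL-1, a 4.70-fold lower fitted level. Slc37a4, the glucose-6-phosphate transporter of the endoplasmic reticulum, was at 26.6, 44.1 and 64.0 CPM and then at 12.1, 8.14 and 14 CPM. Pik3r5, the p101 regulatory subunit of PI3K-gamma, was at 7.41, 25.1 and 9.27 CPM and then at 0.234, 0 and 0.425 CPM. In each of these the gap between the groups was wider than the spread of the PSGL-1 libraries but narrower than that of the vehicle libraries.

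A further 3 lower genes were at 0 in every PSGL-1 library. Slc46a1, the proton-coupled folate transporter, was at 7.09, 6.90 and 6.36 CPM with vehicle. Its vehicle mean was 36.1 times the mean floor of 3 counts in the PSGL-1 libraries, a ratio that ignores the spread between libraries. Slc2a6, a glucose transporter family member, was at 4.64, 2.67 and 16 CPM (at least 41.4-fold lower), and Tas1r3, a taste receptor subunit, at 9.15, 4.82 and 4.09 CPM (at least 32.1-fold lower). In the opposite direction 3 genes that averaged 5 CPM or more with PSGL-1 were at 0 in every vehicle library. They were Aplp1, 9130019P16Rik and Tigd5, named after their values were seen. In the 2 fresh KO libraries Slc46a1 was at 0.0569 CPM, under the floor, and at 9.06 CPM, and Slc2a6 was at 0 in both.

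Podxl, a CD34-family sialomucin that can serve as a selectin ligand on endothelium, was at 41.4, 39.2 and 79.6 CPM with vehicle and 24.4, 16.1 and 15.2 CPM with PSGL-1. Stim1, the calcium sensor of the endoplasmic reticulum, was at 90.9, 120 and 84.7 CPM and then at 58.7, 55.7 and 40.4 CPM. Mfsd2b, an exporter of sphingosine-1-phosphate, was at 69.1, 124 and 90.1 CPM and then at 46.3, 39.2 and 56.6 CPM. The remaining 3 were Osbpl2, a lipid transfer protein (79.1 ± 6.15 and 38.9 ± 11.2 CPM), the circadian repressor Cry2 (56.4 ± 6.32 and 28.8 ± 3.82 CPM) and the membrane protein Ckap4 (84.9 ± 6.51 and 50.3 ± 5.65 CPM).

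DESeq2 called 20 of these 24 genes, and it did not call Stim1, Mfsd2b, Cry2 and Ckap4, with adjusted p from 0.0502 to 0.110. Of its 43 calls, 16 had a mean under 1 CPM in one group, 17 were called in each of the 6 DESeq2 fits that left out 1 library, and 34 were called without KO PSGL-1 replicate 3. All 43 had an unadjusted edgeR p under 0.05.

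How large a difference could have been present depended on the level of the gene. For the 2641 genes averaging 100 CPM or more, the 95% interval lay within 2-fold in both directions for 2440 (92.4%), and 0 had a fitted difference over 2-fold. Between 20 and 100 CPM the intervals of 1898 of 5353 genes (35.5%) lay within 2-fold. Below 5 CPM the median half-width of the interval was 4.73 on the log2 scale, and 700 of 1608 genes (43.5%) had a fitted difference over 2-fold, none of them called by edgeR. Over all levels 4338 genes (36.1%) had an interval within 2-fold.

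**Figure D3:**
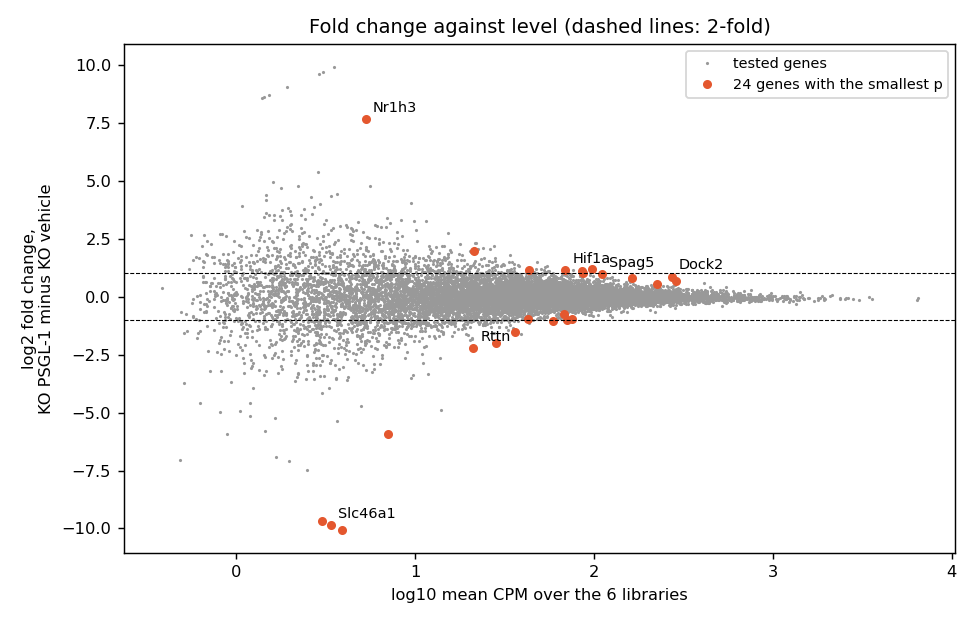
Fitted log2 fold change (PSGL-1 minus vehicle in KO) against log10 mean CPM over the 6 libraries, one grey point per tested gene, with the 24 genes of smallest p in orange and dashed lines at 2-fold. The scatter narrows with level, and none of the 2641 genes with at least 100 CPM lies beyond 2-fold.

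Of the genes of stem cell identity and age, 0 passed edgeR's adjusted test. In each of these lists 2 genes had an unadjusted p under 0.05, of 40 and 39 tested, against 2.46% of all genes, and Mecom is in both. Among 40 HSC identity genes the median was -0.06, 17 lay above 0 and 21 had an interval within 2-fold. Mecom, a transcription factor gene needed for HSC maintenance (chr3:29951296-30509759), was at 55.2, 33.2 and 31.3 CPM with vehicle and at 71.8, 73.4 and 70.9 CPM with PSGL-1. The groups did not overlap, and the log2 fold change of 0.84 (SE 0.30) did not pass edgeR's adjusted test (adjusted p = 0.999). Erg, an ETS factor gene, was at 40.9, 44.9 and 34.4 CPM and then at 26.9, 24.0 and 16.6 CPM (log2 -0.84, SE 0.36), also without overlap and without passing. In this list 2 of 40 members lay without overlap above vehicle and 2 below it, near the 4.78% and 4.2% of all genes tested. Of 39 tested genes of the HSC ageing signature 17 lay above 0, and the 2 with an unadjusted p under 0.05 were Mecom and Wwtr1, a YAP-family coactivator gene at 30.9, 15.8 and 28.8 CPM and then at 48.5, 34.6 and 59.5 CPM.

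Megakaryocyte and platelet genes, the lineage in which P-selectin is abundant, had 11 of 23 members above 0 and a median of -0.04, which was -0.30 without KO PSGL-1 replicate 3. Plek, the platelet protein pleckstrin, was at 126 ± 24.8 and 167 ± 70.6 CPM, and F2r, a thrombin receptor gene, at 138 ± 19.0 and 178 ± 69.8 CPM. For F2r the direction was lost without that library. Quiescence genes had a median of -0.05 over 25 members. Of these 25, 11 lay above 0 and 10 had an interval within 2-fold.

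The cell cycle lists were bounded more tightly. In the list of DNA replication and S phase, 41 of 48 genes had an interval within 2-fold, with a median of -0.02. Pole, a replicative polymerase, was at 102, 78 and 101 CPM and then at 114, 171 and 115 CPM. Of 50 mitotic genes 40 had an interval within 2-fold, 29 lay above 0 and 1 had an unadjusted p under 0.05, Ncaph of condensin, at 81.2, 105 and 104 CPM and then at 120, 169 and 131 CPM. The median of the mitotic list, 0.03, was close to that of all genes.

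Stress lists had similar counts. Among 28 p53 targets 9 lay above 0, with a median of -0.16. Mdm2, the ubiquitin ligase that restrains p53, was at 48.9, 38.1 and 37.5 CPM with vehicle and 76.2, 73.4 and 81.4 CPM with PSGL-1 (log2 0.88, SE 0.25; DESeq2 adjusted p = 0.0426, edgeR adjusted p = 0.999). Cdkn1a, the p53-induced cell cycle inhibitor, was at 103, 225 and 145 CPM and then at 105, 135 and 110 CPM, and Ckap2 at 82.2 ± 25.9 and 50.4 ± 4.63 CPM. These p53 targets lay on both sides of 0. Bcl2, an inhibitor of apoptosis, was at 122, 113 and 144 CPM and then at 102, 63.3 and 92.6 CPM, and 14 of the 26 apoptosis regulators lay above 0.

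Unfolded protein and integrated stress response genes had a median of -0.09 over 36 members, of which 12 lay above 0. Asns, asparagine synthetase, was at 80.6, 108 and 93.2 CPM and then at 126, 125 and 166 CPM, without overlap (log2 0.55, SE 0.21). Heat shock chaperones had a median of -0.03 over 20, with Dnajb4 at 15.7 ± 5.02 and 30.5 ± 3.35 CPM. The NRF2 and glutathione list had a median of -0.10, with 7 of 30 members above 0 and Pgd, an enzyme of the pentose phosphate pathway, at 142, 151 and 140 CPM and then at 55.9, 127 and 101 CPM. Interferon-stimulated genes (median -0.07 over 34) and antigen presentation genes (median -0.09 over 26) had 0 calls, and 8 of the 34 and 15 of the 26 intervals lay within 2-fold.

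Oxidative phosphorylation and ribosomal protein genes had narrow intervals. All 72 tested subunits of nuclear-encoded oxidative phosphorylation had an interval within 2-fold (median -0.05), as did 74 of 78 cytosolic ribosomal protein genes (median -0.07). Of the ribosomal protein genes 10 lay above 0. Rpl4 was at 1456, 1348 and 1314 CPM and then at 1231, 1176 and 1202 CPM, a log2 fold change of -0.20 (SE 0.09), and its groups did not overlap. The summed level of the ribosomal list did overlap, with 40005 to 43983 CPM with vehicle and 36494 to 45669 CPM with PSGL-1, the highest value being that of replicate 3. Its median was -0.21 without that library. Of 30 cholesterol genes 24 had an interval within 2-fold. The median of the cholesterol list was -0.07, with 13 members above 0.

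**Figure D4:**
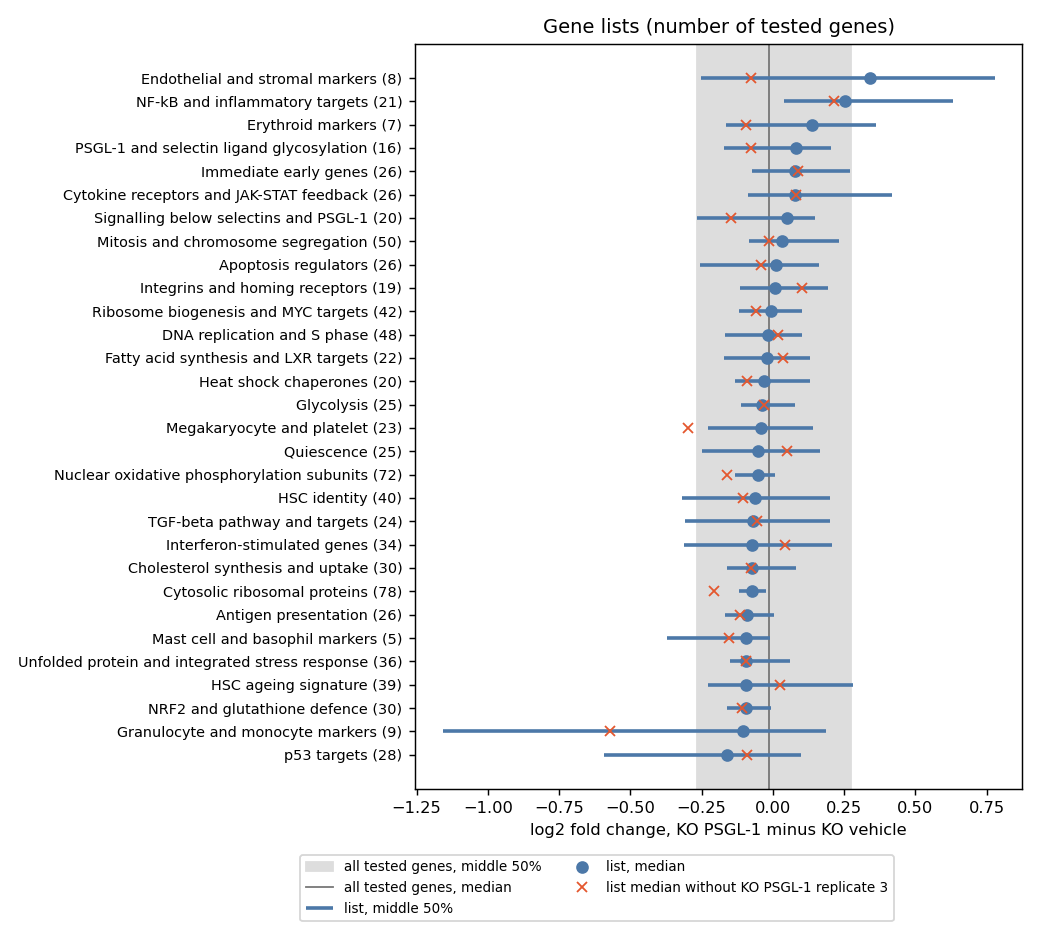
Median (points) and middle 50% (bars) of the fitted log2 fold change in each gene list of at least 5 tested genes, with medians without KO PSGL-1 replicate 3 as crosses and the middle 50% of all tested genes shaded. Most medians lie near that of all genes (-0.02), and the NF-kB list (0.25) and endothelial and stromal markers (0.34) lie highest, the latter at -0.08 without KO PSGL-1 replicate 3.

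Many markers of mature lineages were at 0, and the summed levels of each marker list overlapped between groups. The summed granulocyte and monocyte markers stood at 387 to 498 CPM with vehicle and 390 to 565 CPM with PSGL-1, with 9 of 21 listed genes at 0 in all 6 libraries and most of the sum from Csf3r and Lyz2. Summed erythroid markers were at 702 to 819 and 641 to 899 CPM, macrophage and dendritic markers at 199 to 306 and 214 to 257 CPM, and mast cell and basophil markers at 1040 to 1064 and 916 to 1046 CPM, where Kit, Gata2 and Srgn are shared with HSCs. B and plasma cell markers summed to at most 38.4 CPM and T and NK cell markers to at most 38.3 CPM in any of the 6. In bulk RNA, fewer cells of a type and less RNA per cell cannot be told apart.

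A chosen set of genes that differed strongly between fresh and cultured KO cells had overlapping levels with and without PSGL-1. These genes were chosen for their difference in culture, and both contrasts share the vehicle libraries, so the levels are set side by side only. Tgfbi, a TGF-beta-induced matrix protein, was at 38.4 CPM on average in fresh KO cells, at 575, 509 and 616 CPM with vehicle and at 601, 472 and 481 CPM with PSGL-1. Its interval for PSGL-1 against vehicle, -0.46 to 0.18 on the log2 scale, was narrow beside the distance from the fresh level. Mki67, a proliferation marker, stood at 101 CPM fresh, at 444, 453 and 352 CPM with vehicle and at 511, 361 and 428 CPM with PSGL-1. Lmo2, an HSC transcription cofactor gene, was lower in culture, at 1259 CPM fresh, 483, 406 and 538 CPM with vehicle and 422, 392 and 432 CPM with PSGL-1. The MHC class I gene H2-T23 was at 1002 CPM fresh, at 197, 233 and 229 CPM with vehicle and at 152, 219 and 245 CPM with PSGL-1. In all of these the cultured groups overlapped each other, and neither reached the fresh level. That does not hold for every gene that differed in culture, as some genes picked above for their separation show. Spag5 averaged 13.3 CPM fresh, 74.7 CPM with vehicle and 148 CPM with PSGL-1. Prkar2a averaged 13.5, 59.0 and 137 CPM in the same order.

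Hmgcs1, an early enzyme of cholesterol synthesis, stood at 26.9 CPM fresh, at 334, 472 and 241 CPM with vehicle and at 303, 428 and 342 CPM with PSGL-1, and the PSGL-1 interval ran from -0.53 to 0.58. Fdps, of the same path, stood at 47.3 CPM fresh, at 798, 984 and 703 CPM with vehicle and at 694, 756 and 790 CPM with PSGL-1. The RefSeq promoter of Hmgcs1 (GRCm38.p6, plus strand, chr13:119690101-119690400) is shown because the gene is a readout of the sterol-sensing factor SREBP. The capitals mark the letters TCACCCCA, searched on both strands, 137 to 130 bases before the start. They stand in 511 of 32851 promoters (1.56%).
Hmgcs1: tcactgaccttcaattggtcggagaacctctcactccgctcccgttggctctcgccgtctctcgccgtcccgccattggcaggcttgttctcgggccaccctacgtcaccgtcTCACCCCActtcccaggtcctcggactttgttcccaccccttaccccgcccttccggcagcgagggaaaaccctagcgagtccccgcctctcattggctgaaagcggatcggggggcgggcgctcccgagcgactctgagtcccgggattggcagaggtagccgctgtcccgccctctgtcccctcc

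**Figure D5:**
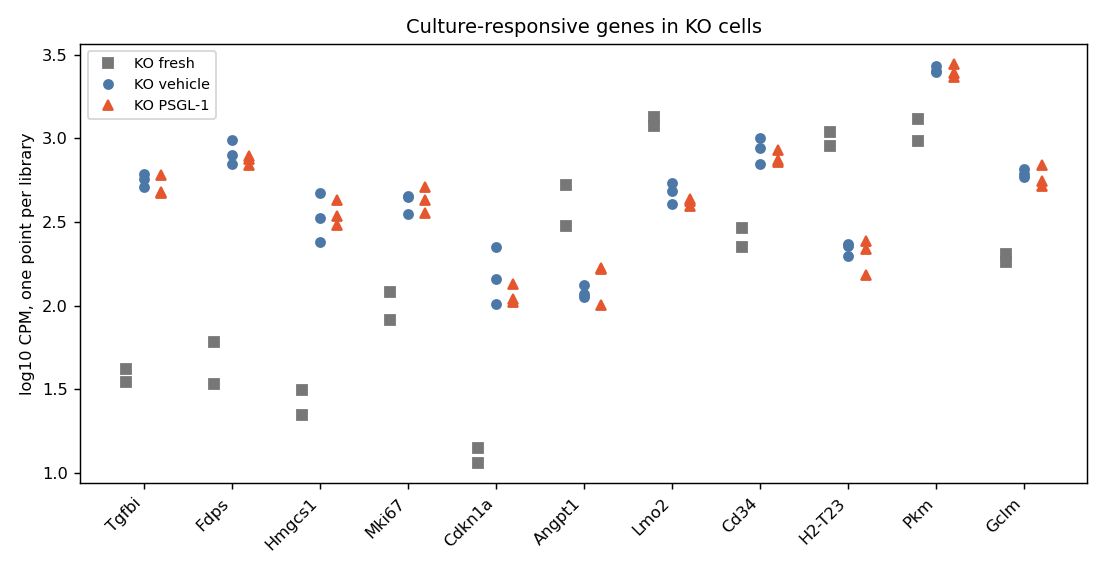
Levels (log10 CPM) of 11 genes that differed between fresh and cultured KO cells, one point per fresh (square), vehicle (circle) and PSGL-1 (triangle) library. The vehicle and PSGL-1 libraries overlap for each gene, for example 509 to 616 and 472 to 601 CPM for Tgfbi.

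Whether the response to PSGL-1 differed between genotypes was tested as an interaction over the 10 cultured libraries. By edgeR 0 of 13341 genes (0%) had an adjusted p under 0.05, and 445 (3.34%) had an unadjusted p under 0.05. The library WT PSGL-1 replicate 1 is sparse, and without it 0 of 14326 genes passed, with 265 (1.85%) at an unadjusted p under 0.05, and with 1 WT PSGL-1 library left, which was assumed to vary like the others. Of the 24 genes above, Mfsd2b had the smallest unadjusted interaction p. It was at 92.7 ± 29.1 CPM in WT vehicle (SD, n = 3) and at 233 and 148 CPM in the 2 WT PSGL-1 libraries, so that the KO minus WT response was -2.04 (SE 0.51) on the log2 scale. Prkar2a was at 103 ± 26.0 CPM in WT vehicle and 92.0 and 102 CPM in WT PSGL-1, a KO minus WT response of 1.29 (SE 0.49). Neither passed the adjusted threshold. The 24 genes were chosen on the same KO libraries that enter the interaction, so these values are a description. Selplg had an interaction of 0.06 (SE 0.42), which was 0.58 without WT PSGL-1 replicate 1.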

How the data were processed

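The deposited table held raw read counts per gene symbol for 25239 genes in 16 libraries. Per the labels' protocols, RNA came from a micro-scale column kit and libraries from SMART Ultra-Low Input chemistry, which amplifies cDNA from little RNA, and no molecular identifiers are mentioned. Per the submitters' processing notes, the tools were STAR 2.7.5c, featureCounts, MultiQC 1.10 and DESeq2, with mm10. Strand setting, annotation and multi-mapped read handling were not stated, so overlapping genes and near-identical copies may share reads.

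From these counts, edgeR 4.0.16 in R 4.3.3 fitted the 6 KO culture libraries alone (filterByExpr with a minimum count of 10, TMM scaling, robust quasi-likelihood), with Benjamini-Hochberg adjustment over 12024 genes. They were fitted alone because a fit of all 16 libraries also takes in WT PSGL-1 replicate 1, which is sparse. The biological coefficient of variation was 0.698. Standard errors and 95% intervals were derived from each F statistic. Levels are CPM ± SD. The median log2 fold change was -0.02. Alternatives were DESeq2 1.42.0, limma 3.58.1 (voom with quality weights), other scaling, filters and sample sets, each library left out, and the replicate numbers as a block. The scripts were tested on simulated data. Coordinates and promoters are RefSeq's for GRCm38.p6, the assembly also named mm10, where 25041 symbols matched. No 2 libraries agreed within sampling noise (chi-square per degree of freedom of 62.1 or more within a group).

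The members, gene lists and rules were chosen with earlier results of these data known. Named genes were Selplg, the binding partners of PSGL-1, 12 genes per direction by p (mean of at least 5 CPM, no overlap), the 2 members of each list with the smallest p, and a set that differed in culture. Values of a few listed genes are left out of the text but not of the fits or list counts.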

Additional observations from a re-analysis of the deposited data

How the results depend on the processing

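edgeR and limma alternatives kept the count of PSGL-1 calls in KO at 0: RLE scaling (302 genes at an unadjusted p under 0.05), no filter (398), a minimum mean of 5 CPM (277), a 2-fold minimum (42), fits with all 16 libraries (198), 15 (313) or the 8 KO libraries (292), voom (484) and each library left out (289 to 463). DESeq2 called 43 genes. In an alternative added after the data were seen, it called 141, 79 and 90 without KO vehicle replicates 1, 2 and 3, and 87, 175 and 161 without KO PSGL-1 replicates 1, 2 and 3. With the replicate block, edgeR called 0 genes, with 273 at an unadjusted p under 0.05. The deviations of same-numbered libraries correlated at 0.049, 0.095 and 0.052, so the numbers were taken as shared only. In these deviations each library correlated best with its own number. The levels did not all follow the numbers: KO vehicle 1 correlated at 0.913 with KO PSGL-1 2 and at 0.906 with KO PSGL-1 1.

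For the difference between genotypes DESeq2 called 63 genes. Leaving out libraries gave 0 to 2382 calls by edgeR: 1 without WT vehicle replicate 3 and 2382 without WT PSGL-1 replicate 2, where WT PSGL-1 rests on the sparse library alone.

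Most named genes were chosen for a small p in these same libraries, which by itself makes reversals rare. Of 1612 alternatives over 101 named genes, 30 reversed the sign of a log2 fold change, none of them in a gene called by DESeq2. Under voom these were Selplg (0.0057), Ackr1 (-0.17), Cd68 (0.55), Kit (0.081) and Mki67 (-0.012), and under the replicate block Cd68 (0.47). With 1 library left out in turn, the log2 fold change took both signs in these genes: Selp -1.47 to 0.072, Selplg -0.34 to 0.098, Ackr1 -0.61 to 2.20, F2r -0.00045 to 0.59, Tap1 -0.59 to 0.0899, Lyz2 -0.017 to 0.36, Spi1 -0.21 to 0.013, Cd68 -0.54 to 0.53, Kit -0.25 to 0.13, Lck -0.042 to 0.33, Hmgcs1 -0.18 to 0.31, Mki67 -0.079 to 0.17, H2-T23 -0.25 to 0.0803, Pkm -0.11 to 0.017, Gclm -0.21 to 0.015. The cause was not tested. Of 34 list medians, 13 had the opposite sign without KO PSGL-1 replicate 3.

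Depth limits genes of low level, and 3 libraries per group limit small differences at any level.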
